A study of Mus musculus with 3 samples.

Results

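The stretches of chromatin described here were the largest 1% of H3K27ac domains in hematopoietic stem cells of old mice, a size class often called super-enhancer-like. H3K27ac is an acetylation of histone H3 carried by active promoters and enhancers. Joining called H3K27ac regions that lay at most 12.5 kb apart gave 30221 domains, and the domains with the largest summed region width were chosen by that width (0.999% of all, called the large domains below). They held 10480 of the 93413 H3K27ac regions and 8.58 Mb of acetylated sequence, 15.4% of the total. The cells were primary stem cells from bone marrow of C57BL/6 mice with the surface phenotype SP-KSL-CD150+, and the age label was 24 months. The series had 3 libraries from these cells, for H3K27ac, for the enhancer-associated mark H3K4me1, and of input DNA, which was not analysed here. No young group was compared. Peak lists hold no expression, and no mm9 annotation was used, so the cell label was not checked against marker genes and no gene, exon or start site was assigned to any domain.

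A super-enhancer is a cluster of neighbouring enhancers that together carry a large amount of acetylation. Such clusters are known from many cell types, where they often lie at genes that define the cell. H3K4me1 usually spans an active enhancer, while at an active promoter it is usually low over the start site and present to the sides. Reading both marks together therefore describes what a joined domain is built from. The class here was set by summed region width alone, and regions at promoters were not removed from it.

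Each mark had 1 library, labelled as a technical replicate. No difference below has a replicate check, no p-value is given, and domains of 1 library are not replicates. Intervals are exact Clopper-Pearson 95% intervals and cover counting error only. H3K27ac summits in the large domains held a median of 14 reads (quartiles 12 and 19) over a genome-wide background of 2.38, and those of all regions held a median of 13. H3K4me1 summits held a median of 20. Fold is the authors' value for a summit over its local background. Coordinates are mm9.

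The large domains ranged from 17.2 to 119.9 kb of acetylated length, with a median of 24.5 kb (quartiles 20.1 and 32.3 kb). This width chose them and is given as a description. There was no step at the limit: the last 3 domains inside had 17.341, 17.340 and 17.249 kb, and the first 3 outside had 17.204, 17.186 and 17.183 kb. The 10 largest domains, of 60.8 kb or more each, held 9.37% of the acetylated length of the class. Below, the runner-up domains are the equal number ranked next (12.6 to 17.2 kb), and the smaller domains are all 15080 others of 2 or more regions, runner-ups included.

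**Figure D1:**
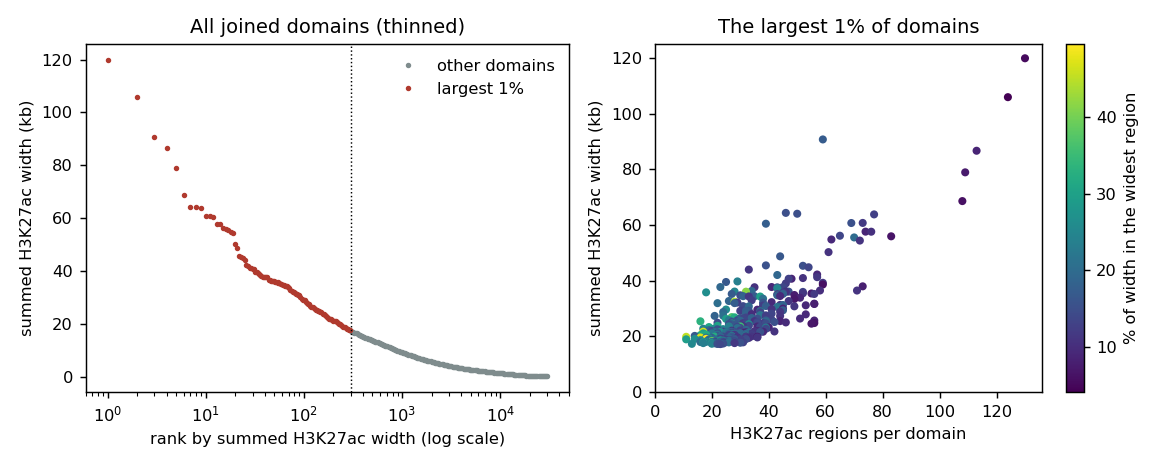
Left, summed H3K27ac width (kb) against rank (log scale) for a thinned set of all domains, with the large domains in red and a dotted line at the limit. Right, the same width against the number of regions in each large domain, coloured by the percentage of the width in the widest region; the limit cuts a smooth curve, and the domain of 59 regions and 90.8 kb stands above domains of like region number.

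Inside, the large domains were chains of many short regions. They held a median of 30 regions (from 11 to 130) over a median span of 89.0 kb (from 34.7 to 375.0 kb), and acetylation covered a median of 29.9% of the span. The median region was 452 bp wide (quartiles 276 and 894 bp), against 346 bp outside these domains. The widest region had a median of 4.01 kb and made up a median of 15.6% of its domain's acetylated length (quartiles 11.9 and 20.6%). A median of 6 regions was needed to reach 50% of that length. In 19 large domains (6.29%) the widest region reached 30%, and in 52 runner-ups (17.2%). Among all domains of 2 or more regions 83.9% reached it, but the share is tied to the number of regions, and the same library set both, so nothing is read from the difference.

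Most breaks between neighbouring regions were short. The median gap was 896 bp (quartiles 363 and 2452 bp), against 1140 bp in the runner-ups and 1830 bp in the smaller domains. Gaps under 500 bp were 34.2% of the 10178 gaps, while gaps of 5 kb or more were 12.1% of them and 47.4% of the length between regions. The largest gap of a domain had a median of 10.01 kb, near the joining limit. Across the large domains the number of regions rose with the span (Spearman rho 0.82), and the fold of the strongest summit had a rho of 0.12 with acetylated length. Both are descriptions over domains that share a library and were ranked by that width.

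Strong summits were spread over these chains. A summit of 10-fold or more was present in 266 large domains (88.1%) and 240 runner-ups (79.5%), against 28.9% of all domains of 2 or more regions, and a domain with more regions has more chances of one. The 672 such summits fell 1 to a domain in 67 domains, 2 in 79, and 3 or more in 120. The strongest summit of a domain had a median of 14.5-fold (from 6.21 to 35.5-fold). It lay in the widest region in 108 large domains (35.8%) and 153 runner-ups (50.7%), against 65.8% of all domains of 2 or more regions, a count that also moves with the number of regions. Of 10 equal parts of the span, the outer ones held 40 and 44 strongest summits and the inner ones 19 to 34 each. In the runner-ups the outer parts held 40 and 43.

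The largest domain, on chromosome 6 from 133983590 to 134218398, was a chain of 130 regions with a median gap of 495 bp. Its widest region, 6.34 kb at one end, was also its strongest, at 26.3-fold with 88 reads. Only 17.0% of that region was in H3K4me1, whereas H3K4me1 covered 82.1% of the gaps between regions. Beyond the edges H3K4me1 covered 6.996% of the first 12.5 kb and 0% of the next.

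A widest region low in H3K4me1 was also seen in 3 more of the 10 largest domains, with very different coverage of the gaps. On chromosome 11 from 18764438 to 18937945, the widest region of 7.17 kb (13.3-fold) had 0% of its length in H3K4me1 and the gaps had 88.6%. In the domain on chromosome 11 from 23949442 to 24274013, H3K4me1 lay on 18.2% of the widest region, of 7.53 kb, and on 42.4% of the gaps. In the domain on chromosome 6 from 99109399 to 99484367, the longest span of the class, it lay on 19.9% of the widest and strongest region, of 4.16 kb at 18.9-fold, and on 35.4% of the gaps. The last 2 values were below the median of the large domains, 48.9%. Such regions were few over the whole class. In 15 large domains (4.97%, interval 2.81 to 8.06%) less than 25% of the widest region was in H3K4me1, against 26.1% of all domains of 2 or more regions. The runner-ups had 23 such domains (7.62%, 4.89 to 11.2%), an overlapping interval. Widest regions had a median of 4.005 kb in the large domains and 0.825 kb in the smaller domains. Narrow regions met H3K4me1 less often: outside the large domains 50.1% did so under 300 bp and 98.8% from 2 to 4 kb. The part of width in these counts was not tested. In 134 large domains (44.4%) and 130 runner-ups (43.0%) the widest region was covered in full, against 35.9% of the smaller domains.

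In other domains among the 10 largest the widest region was mostly or fully in H3K4me1. The fifth, on chromosome 8 from 122847232 to 123088496, had H3K4me1 on 91.9% of its acetylated length and 88.0% of its gaps. Of its 109 regions 1 reached 10-fold, and the summit of that region lay outside H3K4me1. The second, on chromosome 19 from 32212182 to 32464426, had 124 regions, and its widest was 4.16% of the acetylated length, the smallest such share of the class. The seventh, on chromosome 4 from 154489641 to 154625146, reached 50% of its acetylated length with 5 regions. Its widest and strongest region, 9.66 kb at 24.5-fold, was covered to 75.4%. In the ninth, on chromosome 14 from 122260317 to 122472556, the strongest summit (23.0-fold) lay outside H3K4me1 with the mark present 1 kb to both sides.

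The third and eighth largest domains lay close together on chromosome 17. The third (84245180 to 84437300) held 59 regions, 9 summits of 10-fold or more, and the widest region of the class, 15.5 kb from 84352492 to 84368009, of which 97.8% was in H3K4me1. The eighth (84478949 to 84621078) held 50 regions and 7 such summits, and its widest region of 9.61 kb was covered in full. H3K4me1 covered 92.5% and 82.0% of their acetylated lengths and 30.2% and 32.3% of their gaps. Between the 2 domains, over 41.6 kb, it covered 21.5%.

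**Figure D2:**
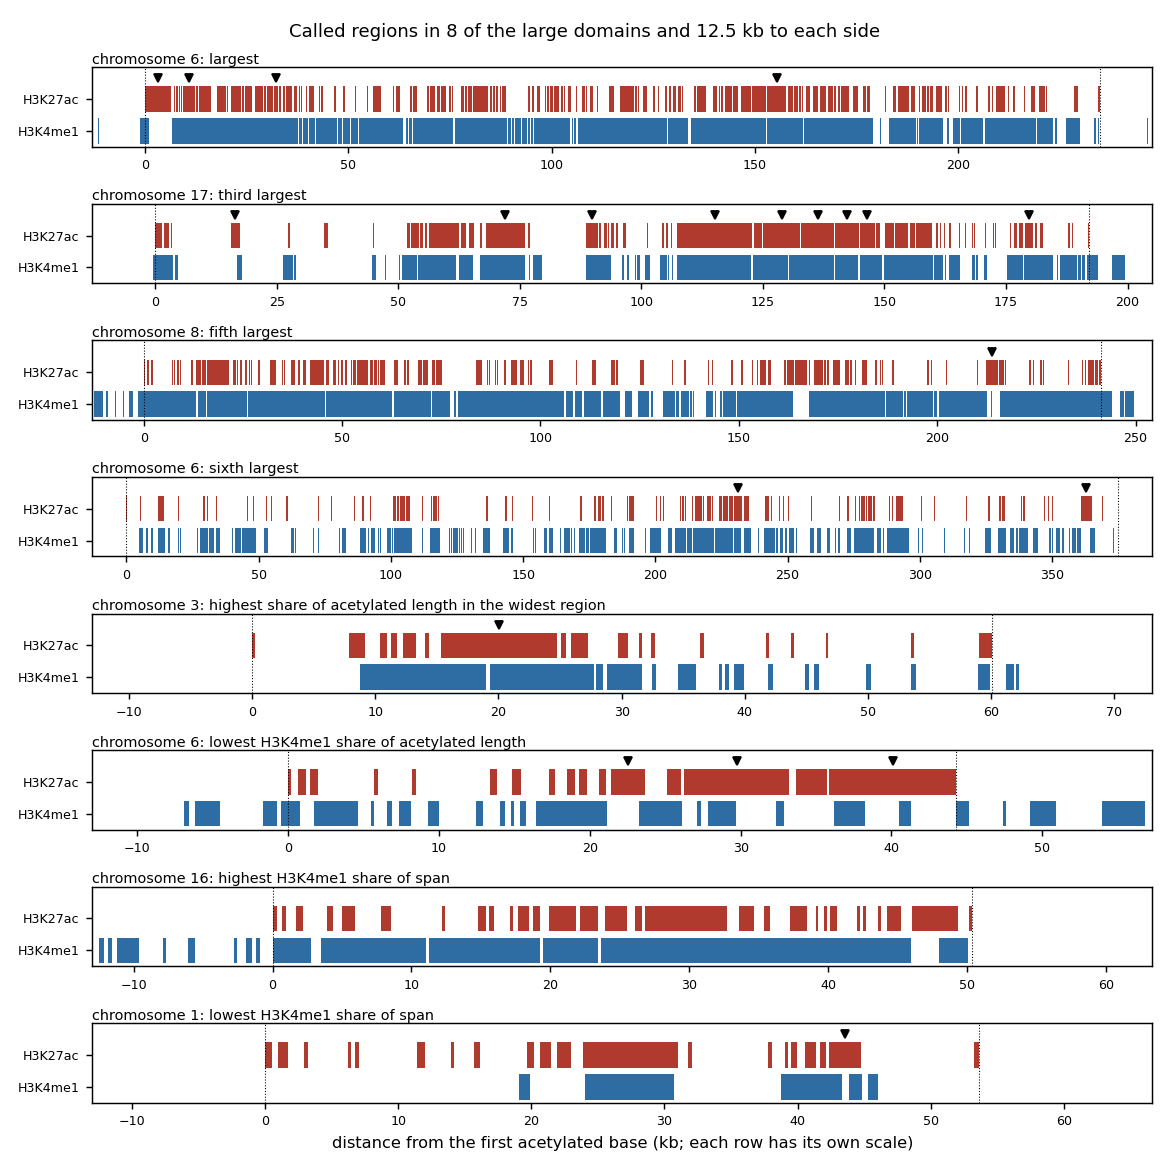
Called H3K27ac regions (red) and H3K4me1 regions (blue) in 8 large domains and 12.5 kb to each side, as distance (kb) from the first acetylated base; dotted lines mark the edges and triangles the middle of regions of 10-fold or more. Each row has its own scale. The fifth largest domain shows near-continuous H3K4me1 (89.3% of the span) and the sixth a broken pattern (43.8% of the span). The domain lowest in acetylated H3K4me1 shows long red regions with little blue (38.4% of the acetylated length, not of the span).

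H3K4me1 covered more of the large domains than of smaller ones, although the ranges overlapped. It lay on a median of 59.8% of the span (quartiles 48.2 and 69.7%), against 53.1% in the runner-ups (44.4 and 63.7%) and 33.6% in the smaller domains (17.5 and 54.9%). It reached 50% of the span in 214 large domains (70.9%, interval 65.4 to 75.9%) and in 175 runner-ups (57.9%, 52.2 to 63.6%), against 30.6% of all domains of 2 or more regions. On the acetylated length alone, the medians were 84.5%, 81.5% and 61.1%. The acetylated share of the span, which raises coverage where the marks overlap, also differed, with medians of 29.9%, 25.1% and 19.5%, and its part in the result was not tested. Among the large domains the coverage of the span had a Spearman rho of 0.70 with regions per kb and 0.60 with the acetylated share. Its rho with acetylated length was 0.22.

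Region by region, weak and narrow sites differed most. Of the regions in large domains 88.0% met H3K4me1 (interval 87.4 to 88.7%), against 85.6% in the runner-ups and 71.7% of all H3K27ac regions. Below 3-fold the shares were 74.8% in large domains, 69.7% in the runner-ups and 46.3% of all regions outside the large domains. Under 300 bp they were 76.4% and 50.1%, but from 2 to 4 kb they were 98.7% and 98.8%. Wide regions thus met H3K4me1 almost everywhere, and a wide region has more bases that can meet it. Summits inside H3K4me1 are a different measure, given below.

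The H3K4me1 signal in a large domain was itself broken into many regions. A domain met a median of 24 (from 5 to 121), and the longest stretch had a median of 9.96 kb, or 11.7% of the span. In 3 large domains (0.99%) and 6 runner-ups (1.99%) a single stretch reached 50% of the span, against 12.5% of the smaller domains. This count depends on the span, with a median of 89.0 kb in the large domains and 9.90 kb in the smaller ones. In kb the longest stretch was shorter in the smaller domains, with a median of 1.56 kb. Of the 3 large domains, 1 lay on chromosome 8 from 124793313 to 124855051, where 1 region covered 42.7 kb (69.1%). The others lay on chromosome 9 and on chromosome 11 from 72254338 to 72318194 (51.7%). Large domains met 7777 H3K4me1 regions, 5.02% of all, but 243 of the 458 of 10 kb or more (53.1%). A long region has more bases that can meet a domain, and 1 shared bp counted. By length, 16.8 Mb of the 173.6 Mb in H3K4me1 regions lay inside the large domains. Of the H3K4me1 length inside the large domains 43.1% was acetylated, against 37.9% in the runner-ups and 34.3% in the smaller domains. Acetylation covered 29.8%, 24.2% and 18.5% of their summed spans, in the same order. The acetylated share of H3K4me1 moves with that base, so no closer overlap of the marks is read from it.

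**Figure D3:**
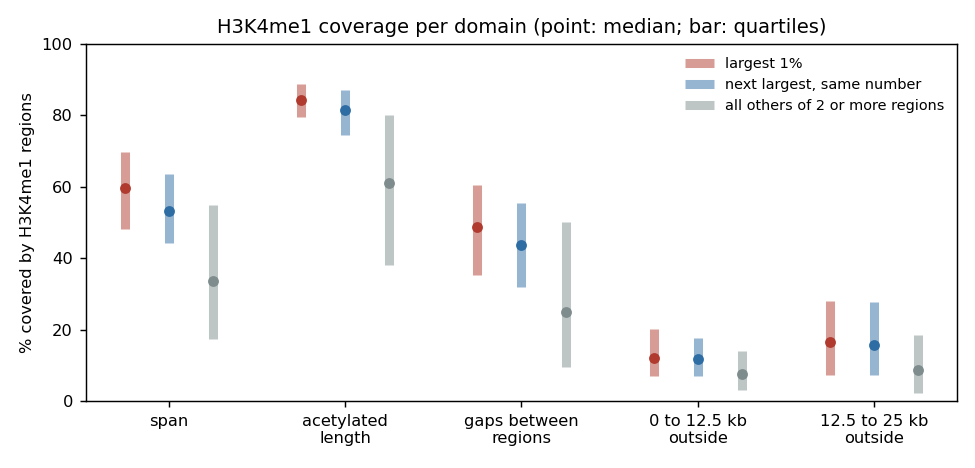
Percentage of bases in H3K4me1 regions per domain, for the span, the acetylated length, the gaps between regions and 2 zones outside the edges; points are medians and bars run between the quartiles. The large domains (red) have medians of 59.8, 84.5 and 48.9% inside and 12.1 and 16.6% outside.

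Gaps inside the large domains carried more H3K4me1 than the sequence just beyond the edges. Over all gaps 47.2% of bases were in H3K4me1, against 41.7% in the runner-ups and 29.1% in the smaller domains. In the 12.5 kb beyond each edge, where the joining rule leaves no H3K27ac, the mean was 15.3%. The gaps exceeded these flanks in 299 large domains (interval 97.1 to 99.8%) and in 295 runner-ups (97.7%, 95.3 to 99.1%), against 77.5% of all domains of 2 or more regions. The large domains and the runner-ups thus had overlapping intervals. A gap lies between 2 acetylated regions and a flank beside 1, so length matters to this comparison. Coverage was 84.2% of bases in gaps under 500 bp, 51.8% from 2 to 5 kb and 29.2% from 5 kb on, and in gaps of 5 kb or more of the smaller domains it was 20.1%. In 5097 gaps of the large domains (50.1%) every base was in H3K4me1, against 42.7% in the runner-ups and 29.4% in the smaller domains. In the large domains this share was 80.1% of gaps under 500 bp and 0.97% of gaps of 5 kb or more.

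Along the span, H3K4me1 was highest in the middle. It covered 49.1% of the first of 10 equal parts, 64.6% of the sixth and 49.1% of the last. H3K27ac was also highest in the sixth part, at 33.4%, with 27.3% in the first, 26.4% in the ninth and 26.9% in the last. Outside, H3K4me1 covered 30.5% of the first 2.5 kb, 9.15% from 7.5 to 10 kb and 19.3% from 15 to 17.5 kb. The runner-ups had 28.3%, 8.93% and 20.04% at these distances.

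**Figure D4:**
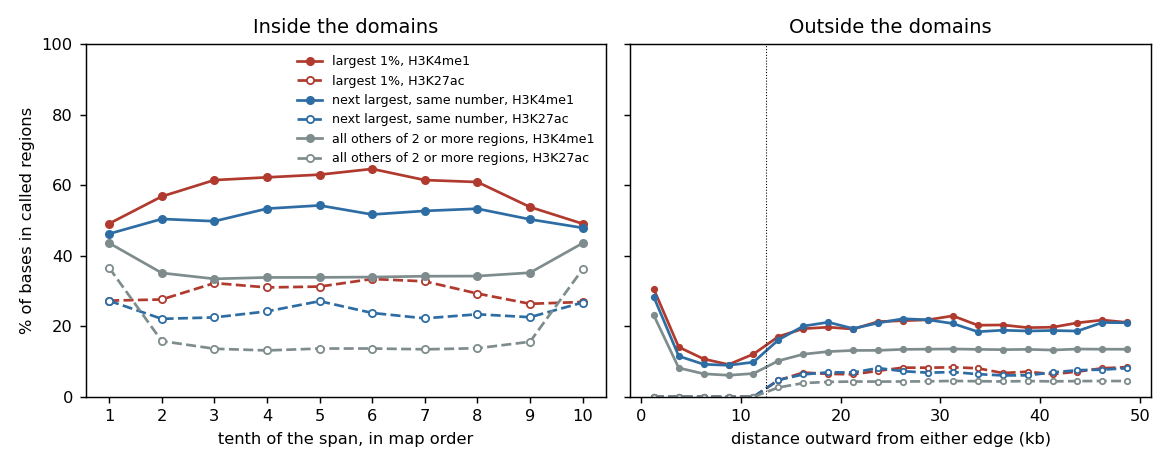
Percentage of bases in H3K4me1 (filled, solid) and H3K27ac regions (open, dashed), left in 10 equal parts of the span and right in steps of 2.5 kb outward from both edges, with a dotted line at 12.5 kb. Inside, H3K4me1 in the large domains (red) runs from 49.1 to 64.6%; outside, the red and blue lines lie close together.

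Strong summits lay inside H3K4me1 more often in the large domains than outside them. Of the 672 summits of 10-fold or more, 410 were inside an H3K4me1 region (61.0%, interval 57.2 to 64.7%), against 1445 of 6583 in all other domains (22.0%, 20.96 to 22.97%) and 25.6% of all such summits. From 10-fold to 20-fold the shares were 62.8% and 24.3%, and at 20-fold or more 46.6% (34 of 73) and 7.53% (69 of 916). The runner-ups had 54.0% (48.9 to 59.1%) and 25.5% (13.9 to 40.3%) in these classes. Both intervals overlapped those of the large domains (58.8 to 66.7% and 34.8 to 58.6%). Over all summits of 10-fold or more the runner-ups had 50.9% (221 of 434, 46.1 to 55.7%). That value was nearer to the large domains than to all other domains. Summits outside H3K4me1 with the mark at 1 kb on both sides were 16.4% of strong summits in the large domains (13.6 to 19.4%), 21.0% in the runner-ups (17.2 to 25.1%, overlapping) and 36.5% of all others. H3K4me1 was also denser around the former: 5 kb to the left it was present at 59.7% of strong summits in large domains and 24.7% of the others. Its part in the difference was not tested.

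Strong regions were also wider in the large domains, with a median of 2580 bp against 1541 bp. At like width the share inside H3K4me1 was higher in the large domains in every class of 10-fold or more that both sets filled. From 10-fold to 20-fold it was 55.6% against 19.5% at 1 to 2 kb (95 of 171 and 575 of 2945), and 62.4% against 36.5% at 2 to 4 kb. The runner-ups, which are part of the others, had 47.8% (65 of 136) and 60.2% (97 of 161) in these classes, with intervals that overlapped those of the large domains. At 4 kb or more it was 78.3% against 64.0%, and the intervals overlapped (70.4 to 84.8% and 54.3 to 72.9%). From 6-fold to 10-fold at 4 kb or more the shares were 78.9% and 79.6%.

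Many domains held both kinds of strong summit. Of the 199 large domains with at least 2 summits of 10-fold or more, 142 had some inside and some outside H3K4me1, 43 had all inside and 14 had none inside. The single strongest summit lay outside H3K4me1 in 139 large domains (46.0%, interval 40.3 to 51.8%), close to the 49.8% of all domains of 2 or more regions. Strongest summits in smaller domains are weaker. From 10-fold to 20-fold the strongest summit lay outside in 45.2% of large domains (95 of 210), 44.2% of runner-ups (88 of 199) and 73.8% of smaller domains. At 20-fold or more it did so in 57.1% (32 of 56), 73.2% (30 of 41) and 91.3%, and the intervals of the large domains and the runner-ups overlapped (43.2 to 70.3% and 57.1 to 85.8%).

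**Figure D5:**
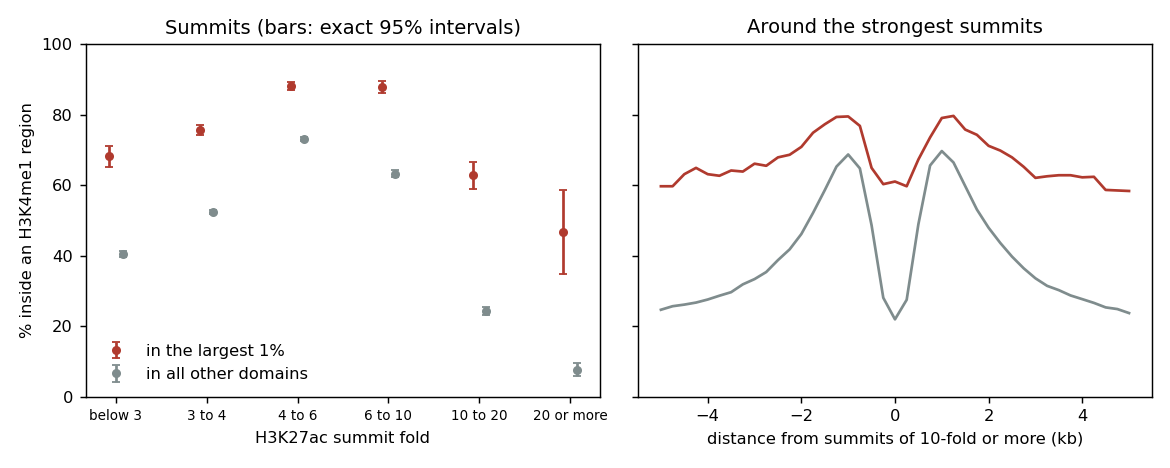
Left, the percentage of H3K27ac summits inside an H3K4me1 region by fold class, with exact 95% intervals. Right, the percentage of summits of 10-fold or more with H3K4me1 at each distance (kb); at the summit it is 61.0% in the large domains (red) and 22.0% in all others (grey).

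Coverage of the span was lower in domains with many strong summits, with wide overlap. Its median was 66.2% in the 36 large domains without a summit of 10-fold or more (quartiles 59.7 and 77.6%) and 56.8% in the 120 with 3 or more (45.2 and 66.3%). The weakest strongest summit, 6.21-fold with 20 reads, was that of the chromosome 8 domain from 124793313, where H3K4me1 covered 88.7% of the span. The next, 7.09-fold, lay on chromosome 11 (90202156 to 90258520), covered to 81.1%. The highest were 35.5-fold on chromosome 14 (79880274 to 80000733), 32.5-fold on chromosome 2 (167511702 to 167614458) and 31.9-fold on chromosome 8 (86703483 to 86746629). The last of these lay inside H3K4me1 and the other two outside.

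The highest coverage of a span was 92.8%, on chromosome 16 from 92778466 to 92828836. None of its 29 regions reached 10-fold, and 94.4% of its gaps was in H3K4me1. Next were domains on chromosome 11, with 91.1% (70375754 to 70411291) and 89.8% (88458968 to 88563173). The lowest were 25.7% on chromosome 1 (90130400 to 90184063), 27.1% on chromosome 7 (149619479 to 149760926) and 27.2% on chromosome 1 (95911680 to 95975724). At the first of these, every H3K27ac summit stood on a raised local background, with a median of 4.37 times the genome-wide level.

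In 8 large domains (2.65%) H3K4me1 covered more of the gaps than of the acetylated length, against 17.8% of all domains of 2 or more regions. The intervals of the large domains and of the runner-ups, where 15 did so (4.97%), overlapped (1.15 to 5.15% and 2.81 to 8.06%). The 8 large domains included the chromosome 16 domain (94.4% of gaps and 91.4% of acetylated length) and the tenth largest (88.6% and 70.7%). Another, on chromosome 6 from 52140503 to 52184807, had the lowest coverage of acetylated length in the class, 38.4%, and 56.5% of its gaps. Its 16 regions filled 57.4% of the span, and the 3 widest made up 69.2% of the acetylated length.

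A few domains were dominated by 1 long region. The widest made up 49.5% of the acetylated length on chromosome 3 (27073952 to 27134057), 47.3% on chromosome 4 (102218580 to 102262828) and 46.4% in the chromosome 11 domain from 70375754. On chromosome 3 from 30309604 to 30414132 a region of 14.1 kb lay at the end of the domain, made up 43.5% of the acetylated length and was in H3K4me1 over 56.4%. At the other end of the range, the widest region of a domain on chromosome 10 (40131190 to 40220225) was 1.45 kb, with 36 regions and H3K4me1 on 59.7% of the span.

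Some large domains were close neighbours, and H3K4me1 between them varied widely. The closest pair, on chromosome 11 (106280231 to 106363201 and 106375740 to 106486228), was 12.54 kb apart, just past the joining limit, with 20.6% of the stretch between in H3K4me1. A pair on chromosome 16 (11417624 to 11542218 and 11558607 to 11672997), 16.4 kb apart, had 0.05% between. The highest value, 61.0%, was over 22.6 kb on chromosome 11 (between 59955040 and 59977666).

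Large domains were found on every autosome, from 7 on chromosome 19 to 28 on chromosome 11. They were 1.57% of the domains of chromosome 11 and held 21.2% of its acetylated length, and 0.65% of the domains of chromosome 1. None of the 530 domains of chromosome X was among them. Median coverage of the span by H3K4me1 ran from 49.7% on chromosome 1 (25.7 to 70.7%) to 73.5% on chromosome 19 (32.3 to 82.04%), and these ranges overlapped.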

How the data were processed

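The peak lists of 1 H3K27ac and 1 H3K4me1 library were used. Per the submitters' processing notes, Bowtie2 2.0.6, MACS2 2.0.10.20131216 and mm9 were involved; filters, caller options and the control are not given in the sources used here. Per peak, the authors deposited a fold ratio, −log10 p and −log10 q values, and a summit offset in bp.

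H3K27ac regions on chromosomes 1 to 19, X and Y were joined over gaps of up to 12500 bp, and the 302 domains of largest summed width were kept; ranks 303 to 604 were the runner-ups. H3K4me1 coverage was counted in bp, and 1 shared bp counted as meeting it. Reads and local background at summits were recovered from fold and −log10 p, assuming a Poisson p and fold as (reads + 1)/(background + 1). A background above 1.05 times the genome-wide value counted as raised. The calculations were tested on simulated data.

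Members and lists were chosen with earlier results of these data known. Domains named were the 10 largest, those at the limit, the 3 highest and 3 lowest per measure and close neighbours. The domains low in acetylated H3K4me1 or with single long stretches, the mapped domains, the summits of 10-fold or more with their width classes, widest regions low in H3K4me1, and gaps above acetylated length were picked after values were seen. The planned gene and marker lists were not used and no sequence is printed, for want of mm9 coordinates of genes and an mm9 genome in this work. Software: Python 3.11.15 with scipy 1.17.1, pandas 2.3.3, numpy 2.4.6; figures by matplotlib 3.10.9.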

Additional observations from a re-analysis of the deposited data

Results flagged for a closer look

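A signal appeared in the local background, which was not itself compared between the 2 marks. Local background enters the fold and, as assumed here, the p value of each summit. It can therefore bear on which regions of either mark were called, and its part in the coverage was not tested. In the large domain on chromosome 1 from 90130400 to 90184063 the local background was raised at all 20 H3K27ac summits, with a median of 4.37 times the genome-wide level (from 3.56 to 6.16 times). At the 5 H3K4me1 regions of this domain the median was 5.25 times. The next highest median of a large domain was 1.17 times. The domain's median fold, 2.62, was the lowest of the class, while its summits held a median of 28.5 reads. It also had the lowest coverage of the span by H3K4me1. Over the class 29.8% of H3K27ac summits had a raised background, against 26.2% of all.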

How the results depend on the processing

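Of 62 alternative values over 10 settings, 26 stayed within the counting or order-statistic interval of the reported value (for the number of shared domains, within 1.5 times) and 36 moved. The cause was not tested. The setting without H3K27ac regions of raised background, and all values for summits of 10-fold or more, were chosen after seeing the data. Of the large domains 208 overlapped one chosen with gaps of 5 kb, 230 with 25 kb, 227 when ranked by fold times width, 227 at an H3K27ac −log10 q of at least 5, and 222 without raised background; with 0.5 or 2 times as many domains the number is fixed by construction and was not counted. The median H3K4me1 share of the span (59.8%) was 79.5% with gaps of 5 kb, 40.2% with 25 kb, 71.7% at an H3K27ac −log10 q of 5, 56.7% with 2 times as many domains, 56.1% at an H3K4me1 −log10 q of 5, 51.1% at 10, 56.1% with as many H3K4me1 as H3K27ac regions, and 63.2% without raised background. The share of the acetylated length (84.5%) was 87.4% with gaps of 5 kb, 80.6% with 25 kb, 83.95% by fold times width, 87.3% at an H3K27ac −log10 q of 5, 86.3% with 0.5 times as many domains, 83.4% with 2 times, 83.3% and 78.8% at an H3K4me1 −log10 q of 5 and 10, 83.2% with equal numbers of regions, and 83.6% without raised background. The widest region's share (15.6%) was 22.95% with gaps of 5 kb, 10.5% with 25 kb, 18.8% by fold times width, 24.7% at an H3K27ac −log10 q of 5, 13.6% with 0.5 times as many domains, 17.8% with 2 times, and 20.4% without raised background. The strongest summit lay outside H3K4me1 (46.0%) in 34.4% with gaps of 5 kb, 57.3% with 25 kb and 39.4% at an H3K27ac −log10 q of 5. Summits of 10-fold or more lay inside H3K4me1 (61.0% in large domains) in 67.7% with gaps of 5 kb, 49.1% with 25 kb, 56.6% by fold times width and 57.1% with 2 times as many domains. In the other domains (22.0%) the share was 23.4% with 0.5 times as many large domains, 19.9% with 2 times, 18.6% at an H3K4me1 −log10 q of 10, and 20.8% without raised background. In each of the 10 settings this share was higher in the chosen domains than in the others.

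No paired analysis was possible because no mark has a second library. The joining gap moved the coverage of the span most, and it defines the domains. Depth limits weak regions: no H3K27ac summit under 8 reads and no H3K4me1 summit under 10 was called.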

Other observations

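The largest domain of chromosome X, outside the class at rank 532, lay from 166578880 to 166634614 with 25 H3K27ac regions, 13.3 kb of acetylated length and 0 H3K4me1 regions. Of its summits 56.0% had a raised local background, and its strongest summit was 7.09-fold.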
